A study of Homo sapiens with 8 samples.

Results

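The subject is the RNA of 7 chromatin remodeler genes, SRCAP, EP400, INO80, CHD8, SMARCA4, ARID1A and ARID1B, as seen by UV cross-linking and immunoprecipitation (CLIP) of the RNA-binding protein RBM45. A peak belonged to a gene when it touched that gene's hg19 span by at least 1 base and was listed on the gene's strand. This chose 354 of 210878 entries (0.168%) in the replicate 1 list, 172 of 65587 (0.262%) in the replicate 2 list, and 43 of the 13758 deposited pairs of overlapping peaks (0.313%). An entry is a peak and its strand, with repeated rows counted once. The genes were chosen by the positions of peaks in these same 3 lists, with earlier results known, so their number of peaks is a description and was not tested. As a share of each list's members, the pairs took up 43 of 354 replicate 1 entries (12.1%), against 6.52% of the whole list, and 43 of 172 replicate 2 entries (25%), against 20.9%. Not every overlap is in the pair list, as 61 of the 172 replicate 2 entries shared a base with a replicate 1 entry. The rule that chose the pairs is not stated. In these 7 genes, every pair shared at least 50% of the bases of its replicate 1 peak, and every overlap left out shared less. Whether this holds over the whole list was not tested.

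Both lists came from HEK293T, a transformed human embryonic kidney line, of wild-type genotype (WT). Like all the libraries, these cells carried a lentivirus for FLAG-HA-tagged human RBM45, so the tagged protein was added to whatever the cells make themselves. They were irradiated at 254 nm with 300 mJ/cm2, and RBM45 was pulled down through its HA tag in 2 CLIP replicates. The study also has METTL3 knockout CLIP libraries and inputs without antibody of both genotypes, 8 samples in all, which were not analysed here. Whether replicates came from separate cultures is not given in the labels.

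Chromatin remodelers are large machines that use ATP to slide, evict or rebuild nucleosomes, and so set which DNA is open. SMARCA4 (BRG1) is an ATPase of the SWI/SNF (BAF) complexes, and ARID1A and ARID1B are alternative large subunits that help target them. SRCAP, EP400 and INO80 are the ATPases of complexes of the INO80 family, and the first 2 are known for placing the histone variant H2A.Z. CHD8 is an ATPase of the CHD family, known as a regulator of Wnt signalling and as an autism risk gene. RBM45 has RNA recognition motifs and is mainly nuclear, so it can meet unspliced as well as spliced RNA. METTL3 writes m6A, the commonest internal mark of messenger RNA, which is why the study set WT against METTL3 knockout cells.

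SMARCA4 is shown first with sequence, because its entries fall into blocks by the number of rows they stand in, and the last step lies at about the distance that parts its 2 RefSeq starts. RefSeq places these starts in GRCh38.p14, 23.1 kb apart on the plus strand of chromosome 19, at windows chr19:10960780-10961079 and chr19:10983874-10984173. Each window holds 250 bases before the listed start in lower case and 50 bases from it in capitals. The downstream window lies within the gene as read from the upstream start, so its lower-case bases can be transcribed too. Whether transcription begins at either listed start was not tested.
SMARCA4 upstream start: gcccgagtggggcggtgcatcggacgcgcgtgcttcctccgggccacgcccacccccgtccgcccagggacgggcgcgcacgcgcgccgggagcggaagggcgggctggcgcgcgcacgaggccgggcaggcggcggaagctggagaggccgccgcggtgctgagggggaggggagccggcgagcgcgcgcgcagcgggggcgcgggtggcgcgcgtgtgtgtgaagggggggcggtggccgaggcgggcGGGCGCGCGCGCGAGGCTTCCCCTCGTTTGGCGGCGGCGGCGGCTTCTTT
SMARCA4 downstream start: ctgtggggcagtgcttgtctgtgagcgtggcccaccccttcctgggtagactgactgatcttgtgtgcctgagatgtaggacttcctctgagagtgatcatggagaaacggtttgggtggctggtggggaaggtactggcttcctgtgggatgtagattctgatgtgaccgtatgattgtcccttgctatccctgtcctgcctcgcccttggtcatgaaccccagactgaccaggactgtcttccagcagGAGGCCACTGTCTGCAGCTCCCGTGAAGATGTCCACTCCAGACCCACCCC
The upstream window was 81.3% G or C with 55 CG dinucleotides, and the downstream window was 57% G or C with 5. In the hg19 lists, entries in the first part of SMARCA4, up to 23.1 kb from the start of its span, numbered 18 in replicate 1 and 14 in replicate 2, and all but 1 of them stood in 3 rows. The other 46 and 28 entries, from 23.8 kb onward, stood in 7 rows each. ARID1B also has 2 RefSeq windows, and all its 113 and 43 entries stood in 2 rows. CHD8 has 1 window, and its entries stood in 2 or 3 rows. What the repeated rows stand for is unknown here, and positions were not carried from one build to the other.

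All 7 genes had peaks in both lists, but at very different densities. SRCAP was the most densely covered, with 82.5 entries per 100 kb in replicate 1 and 78.1 in replicate 2. SMARCA4 followed with 61.3 and 40.2, and ARID1A with 58.1 and 36.0. EP400 had 41.4 and 8.43, ARID1B 26.1 and 9.93, and INO80 23.3 and 5.10 entries per 100 kb. CHD8 was lowest, with 5.76 and 3.84. SRCAP lay above every other member in both lists. Within each list the order was the same, except that EP400 stood above ARID1B in replicate 1 and below it in replicate 2. The whole replicate 1 list was 3.22 times as long, so densities are best compared within a list. The gap between INO80 and CHD8 in replicate 2 rests on 7 and 2 entries, and no difference between neighbours was tested. Over the whole lists, 100-kb windows of 1 strand with at least 1 entry held a median of 6 entries in replicate 1 and 3 in replicate 2. The upper quartiles were 13 and 6. How much RNA each gene makes was not measured here, so more transcript and more binding per transcript cannot be told apart.

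**Figure D1:**
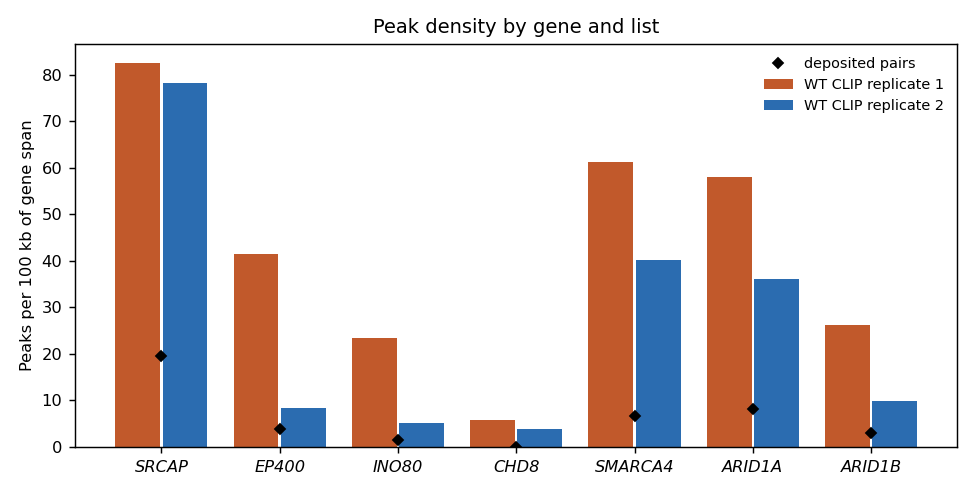
Bars give peaks per 100 kb of gene span for each gene in the replicate 1 and replicate 2 lists, and diamonds give the deposited pairs per 100 kb. SRCAP stood highest in both lists at 82.5 and 78.1, and CHD8 lowest at 5.76 and 3.84, with no pair.

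The balance of the 2 lists differed among the genes. Together the 7 genes held 2.06 times as many replicate 1 as replicate 2 entries, while the whole replicate 1 list was 3.22 times as long. Replicate 2 supplied 32.7% of the members' entries, against 23.7% over the whole lists. SRCAP had 38 entries in replicate 1 and 36 in replicate 2, so replicate 2 supplied 48.6% (95% exact binomial interval 36.9 to 60.6). SMARCA4 had 64 and 42 entries (39.6%, 30.3 to 49.6), and ARID1A had 50 and 31 (38.3%, 27.7 to 49.7). ARID1B had 113 and 43 entries (27.6%, 20.7 to 35.3). EP400 had 54 and 11 entries (16.9%, 8.76 to 28.3), and INO80 had 32 and 7 (17.9%, 7.54 to 33.5). The whole-list 23.7% lay inside the intervals of ARID1B, EP400 and INO80. CHD8 had 3 and 2 entries, too few to place. The rule used these lists, so the distance of the 7 genes from the whole lists is a description. With 1 pair of lists there is no test over samples, and these intervals hold counting error alone, as if peaks were independent.

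The share of peaks that recurred at the same bases in the other replicate was counted for each gene. Of the 172 replicate 2 entries in the 7 genes, 61 overlapped a replicate 1 entry of the same strand by 1 base or more, which is 35.5%, against 28.8% of the whole list. Of the 354 replicate 1 entries, 60 did so, or 16.9%, against 8.88% of the whole list. The genes were chosen from these lists and the list of pairs, so the distance of these shares from the whole lists is part of the choice and nothing is read from it. In replicate 2 the share was 54.5% in EP400 (6 of 11), 44.4% in SRCAP (16 of 36), 35.5% in ARID1A (11 of 31), 34.9% in ARID1B (15 of 43), 28.6% in INO80 (2 of 7) and 26.2% in SMARCA4 (11 of 42). The replicate 2 intervals of these 6 genes overlapped throughout. In replicate 1 the share was 39.5% in SRCAP (15 of 38), 22% in ARID1A (11 of 50) and 17.2% in SMARCA4 (11 of 64). It was 13.3% in ARID1B (15 of 113), 11.1% in EP400 (6 of 54) and 6.25% in INO80 (2 of 32). There the SRCAP interval, 24.0 to 56.6, lay above those of ARID1B (7.62 to 20.9), EP400 (4.19 to 22.6) and INO80 (0.766 to 20.8). A replicate 1 share is limited by how many replicate 2 entries the gene has. These were 36 beside 38 in SRCAP, 43 beside 113 in ARID1B, 11 beside 54 in EP400 and 7 beside 32 in INO80. The gap between these intervals therefore cannot be read as a difference in recurrence. No CHD8 entry overlapped, and its 2 replicate 2 peaks lay 252 and 4590 bases from the nearest replicate 1 peak. In all, 130 of the 172 replicate 2 entries lay within 1 kb of a replicate 1 entry of the same gene. Lack of a counterpart was the usual case in replicate 1, for 294 of the 354 entries, and each gene's replicate 1 peak of highest fold had none. The replicate 2 peak of highest fold was overlapped in SRCAP, EP400, INO80, SMARCA4 and ARID1B, and not in CHD8 or ARID1A.

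**Figure D2:**
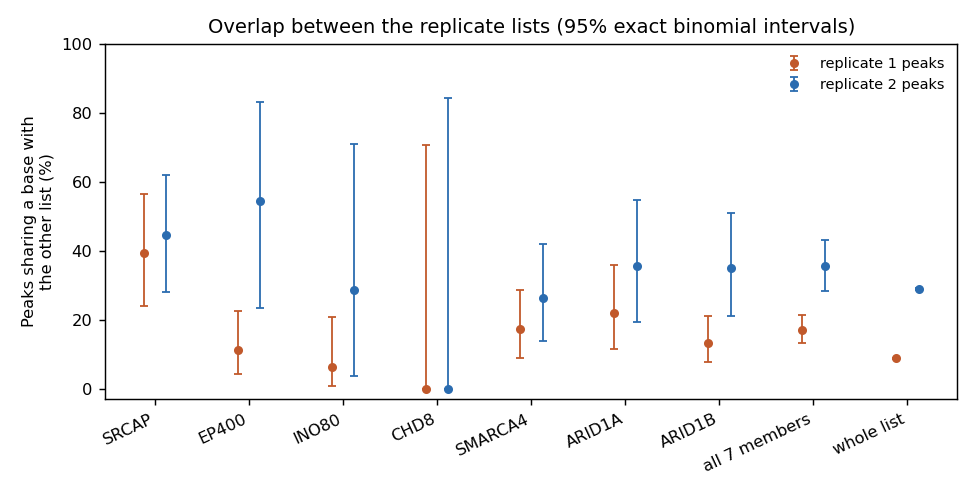
Points give the share of peaks (in percent) that overlap a peak of the other replicate's list on the same strand, with 95% exact binomial intervals, for each gene, for all 7 members and for the whole lists. The members as a group stood at 35.5% for replicate 2 and 16.9% for replicate 1, beside 28.8% and 8.88% for the whole lists.

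As the authors' caller gives it, fold enrichment in these genes was moderate. The median was 3.56 in replicate 1, against 3.12 over the whole list, and 4.05 in replicate 2, against 3.81. Above 5-fold there were 47 of 354 replicate 1 entries (13.3%, 9.92 to 17.3), against 9.16% of the whole list, and 35 of 172 replicate 2 entries (20.3%, 14.6 to 27.1), against 18.0%. The replicate 2 share was near that of its whole list, and the replicate 1 share lay above that of its own. Nothing is read from either distance, since the genes were chosen from these lists. No replicate 1 entry exceeded 10-fold, against 0.279% of that list, and 1 replicate 2 entry did, in SMARCA4, against 0.464%. SMARCA4 had the most entries above 5-fold, 14 of 64 in replicate 1 and 13 of 42 in replicate 2, with intervals of 12.5 to 34.0% and 17.6 to 47.1%. ARID1B had 10 of 113 and 9 of 43, ARID1A 9 of 50 and 3 of 31, and SRCAP 5 of 38 and 6 of 36. EP400 had 4 of 54 and 3 of 11, INO80 5 of 32 and 0 of 7, and CHD8 0 of 3 and 1 of 2. Peaks were a little wider than usual, with a median of 34 bases in replicate 1, against 30 over the list, and 32.5 bases in replicate 2, against 31. SRCAP peaks were the widest of the 6 genes with more than 3 peaks a list, with medians of 48 and 38.5 bases.

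**Figure D3:**
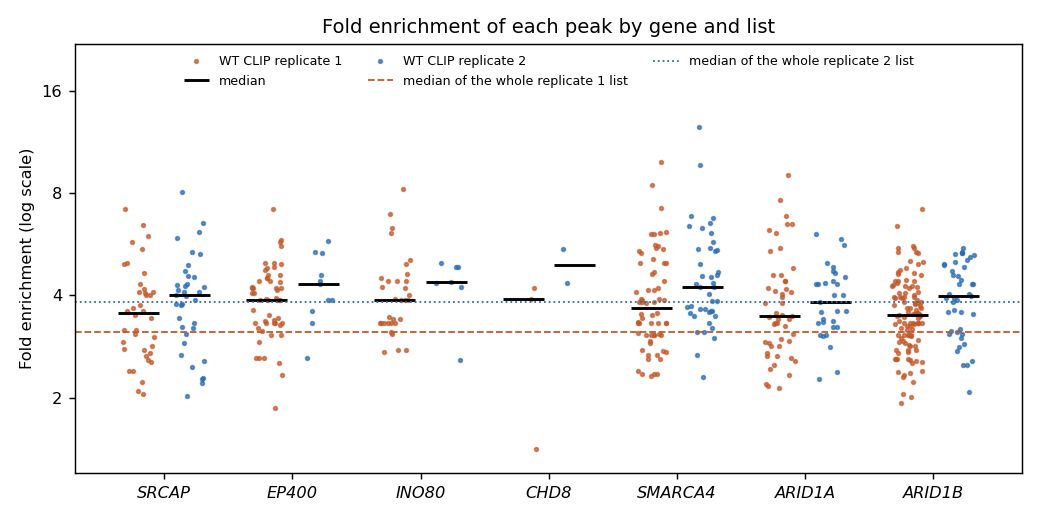
Each point is the fold enrichment of 1 peak over the caller's background (log axis) in the replicate 1 or replicate 2 list, with black bars for gene medians and lines for the whole-list medians of 3.12 and 3.81. The highest point is the SMARCA4 replicate 2 peak at 12.5-fold, and the lowest is a CHD8 replicate 1 peak at 1.41-fold.

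Among the histone-exchange ATPases, SRCAP (chr16:30709530-30755602, plus strand) held 9 of the 43 deposited pairs although its span made up 4.66% of the 7 genes' length. Of 3 equal parts of the gene, the middle held the most peaks, 21 of 38 in replicate 1 and 16 of 36 in replicate 2. The densest 5 kb by pairs was the stretch from 25.5 to 30.5 kb after the start, 10.9% of the span. It held 6 of the 9 pairs, 13 of the replicate 1 entries and 11 of the replicate 2 entries. This stretch was chosen as the densest, so its excess over its length is part of the choice. The pair with the highest lower fold lay upstream of that stretch, at 20.6 kb, where the peak at chromosome 16, 30730132 to 30730182, had 5.97-fold in replicate 1 and the peak at 30730138 to 30730180 had 8.08-fold in replicate 2. The widest SRCAP peaks of both lists were the 2 peaks of 1 pair, 277 bases at 30748706 to 30748982 (6.44-fold) in replicate 1 and 272 bases at 30748699 to 30748970 (3.75-fold) in replicate 2. This pair, 39.3 kb from the start, also held the highest score of SRCAP in replicate 1. A second pair lay beside it, at 30749105 to 30749175 with 4.18-fold in replicate 1 and 30749075 to 30749165 with 4.23-fold in replicate 2. A pair inside the dense stretch, at 30735536 to 30735574 (4.33-fold) in replicate 1 and 30735535 to 30735576 (4.02-fold) in replicate 2, ranked next. The strongest replicate 1 fold in SRCAP, 7.16 at 30717035 to 30717066, had no counterpart in replicate 2.

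EP400 (chr12:132434465-132565005, plus strand), the ATPase of the TIP60 acetyltransferase complex, had many peaks in replicate 1 spread along the gene but few in replicate 2. Its 11 replicate 2 entries were at 6.19, 42.98, 43.2, 45.3, 45.8, 46.1, 46.2, 60.1, 66.3, 66.9 and 105 kb from the start. All but the first and the last thus lay between 42.98 and 66.9 kb. All 5 pairs fell in that stretch, 3 of them up to 45.3 kb. The strongest pair, at 66.3 kb, had nearly equal folds, 5.74 at chromosome 12, 132500789 to 132500834, in replicate 1 and 5.79 at 132500800 to 132500829 in replicate 2. A pair at 45.3 kb had 5.83-fold at 132479706 to 132479793 in replicate 1 and 4.40-fold at 132479714 to 132479773 in replicate 2. The pair at 60.1 kb had 3.87-fold and 5.38-fold. The gene's highest score was at 45.3 kb in replicate 1 and at 66.3 kb in replicate 2, and both of these peaks had a counterpart in the other list. EP400's strongest replicate 1 fold, 7.18 at 132470466 to 132470502, had none. With the gene split into 3 equal parts, replicate 1 also listed 19 entries in the 3′ part, where replicate 2 listed 1.

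INO80, whose complex slides nucleosomes and also serves replication and repair, is on the minus strand (chr15:41271079-41408340), so its RNA starts at the higher coordinate. Its peaks were sparse, but the start of the gene stood out in replicate 2. The 7 replicate 2 entries lay 0.331, 1.81, 2.32, 17.1, 50.6, 80.6 and 82.3 kb from the start. Within 5 kb of the start there were 3 entries in each list, out of 7 in replicate 2 and 32 in replicate 1. The pair there was at chromosome 15, 41406514 to 41406599, with 3.90-fold in replicate 1 and at 41406490 to 41406565 with 4.38-fold in replicate 2, and these were also the widest INO80 peaks of both lists. The other pair lay 80.6 kb from the start, at 41327700 to 41327729 with 3.87-fold in replicate 1 and at 41327698 to 41327727 with 4.98-fold in replicate 2. The strongest INO80 peak of replicate 1, 8.22-fold at 41386946 to 41386976, was not in the replicate 2 list.

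CHD8 (chr14:21853354-21905457, minus strand) was nearly empty. Its 3 replicate 1 entries lay 19.2, 20.2 and 40.0 kb from the start, with folds of 4.20, 3.89 and 1.41, and its 2 replicate 2 entries lay 14.5 and 19.9 kb from the start, with folds of 5.48 and 4.36. All but 1 of the 5 peaks therefore lay in a stretch between 14.5 and 20.2 kb, without sharing a base. The peak at 40.0 kb, chromosome 14, 21865453 to 21865537, was the widest at 85 bases, and its score of 59 equalled that of the 4.20-fold peak. It stood in 3 rows, and the other CHD8 entries stood in 2. In the GENCODE release 29 annotation of GRCh38, CHD8 contains the small nucleolar RNA genes SNORD8 and SNORD9 on its own strand. Whether the peak falls on either was not analysed here, since that needs an hg19 annotation.

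In SMARCA4, the SWI/SNF ATPase gene, pairs and replicate 2 peaks leaned to the 5′ part. SMARCA4 (chr19:11071598-11176071, plus strand) had 24 of its 42 replicate 2 entries in the 5′ part of 3 equal parts of its span, 11 in the middle and 7 in the 3′ part. In replicate 1 the same counts were 27, 16 and 21. Of its 7 pairs, 5 lay in the 5′ part, at 0.811, 7.42, 11.2, 11.5 and 29.8 kb from the start of its span. Of these, 4 lay before 23.1 kb, ahead of the step in row number described above. Overlapping peaks that are not in the pair list lay at 28.8, 37.6, 71.1 and 95.3 kb. The peak with the highest fold of all 7 genes was the replicate 2 peak at chromosome 19, 11078977 to 11079031, with 12.5-fold. Its replicate 1 partner at 11078977 to 11079050 had 3.50-fold, the most unequal folds of the 43 pairs, -1.84 as log2 of replicate 1 over replicate 2. The pair ranked first in SMARCA4 lay far downstream, at 87.2 kb, with 7.25-fold at 11158814 to 11158868 in replicate 1 and 6.10-fold at 11158837 to 11158881 in replicate 2. Next came the pair at 11.5 kb, with 6.08-fold at 11083091 to 11083141 in replicate 1 and 9.70-fold at 11083087 to 11083127 in replicate 2. The pair nearest the start, at 11072394 to 11072424 and 11072395 to 11072424, had 5.60-fold and 5.41-fold in replicates 1 and 2. The strongest SMARCA4 peak of replicate 1, 9.91-fold at 11166174 to 11166284, lay near the other end, at 94.6 kb, and had no counterpart in replicate 2.

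ARID1A and ARID1B encode alternative subunits of the same complex, and their RNAs were covered unevenly. Per length, ARID1A held more peaks than ARID1B, 58.1 against 26.1 entries per 100 kb in replicate 1, 36.0 against 9.93 in replicate 2, and 8.13 against 3.003 pairs per 100 kb. ARID1B is 432.85 kb long and ARID1A 86.1 kb, so in number ARID1B still had more, 113 and 43 entries, against 50 and 31 in ARID1A. Their folds were alike, with medians of 3.50 in ARID1B and 3.47 in ARID1A in replicate 1, and 3.98 in ARID1B and 3.81 in ARID1A in replicate 2.

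In ARID1A (chr1:27022522-27108595, plus strand) the pairs began near the start of the gene and thinned out along it. They lay 1.71, 9.53, 17.4, 20.6, 26.6, 38.3 and 84.9 kb from the start, with none between 38.3 and 84.9 kb. Peaks of the 2 lists also overlapped at 16.3, 38.6, 65.0 and 80.2 kb without being in the pair list. The pair at 20.6 kb had 7.63-fold at chromosome 1, 27043125 to 27043161, in replicate 1 and 3.61-fold at 27043128 to 27043158 in replicate 2. The pair at 1.71 kb had 6.10-fold at 27024177 to 27024285 and 3.37-fold at 27024198 to 27024264, again lower in replicate 2. The pair at 17.4 kb was even, with 3.41-fold and 3.34-fold. The last pair, close to the 3′ end of the span, was the widest of ARID1A in both lists, 157 bases at 27107325 to 27107481 (2.85-fold) in replicate 1 and 162 bases at 27107313 to 27107474 (4.53-fold) in replicate 2. ARID1A's strongest replicate 1 peak, 9.06-fold at 27103898 to 27103931, was not in the replicate 2 list.

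In ARID1B (chr6:157099064-157531913, plus strand) the pairs sat in the middle of the gene, 11 of 13 between 175 and 281 kb from the start. Replicate 2 had 26 of 43 entries in the middle of 3 equal parts, 14 in the 5′ part and 3 in the 3′ part, while replicate 1 had 44, 46 and 23. The 13 pairs are themselves among these entries of both lists, 11 in the middle part and 2 in the 5′ part. The replicate 2 counts are thus no separate sign of the place. The pair with the highest lower fold lay apart from these, at 23.6 kb, with 5.38-fold at chromosome 6, 157122643 to 157122672, in replicate 1 and 5.50-fold at 157122644 to 157122673 in replicate 2. The next was at 197.5 kb, with 4.66-fold at 157296549 to 157296604 in replicate 1 and 4.91-fold at 157296551 to 157296603 in replicate 2. A pair at 213 kb had 4.42-fold and 4.05-fold. ARID1B's strongest replicate 1 fold, 7.18 at 157229460 to 157229490, had no counterpart in replicate 2. The densest 5 kb by pairs, from 244.0 to 249.0 kb, held 3 pairs, 4 replicate 1 entries and 3 replicate 2 entries.

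**Figure D4:**
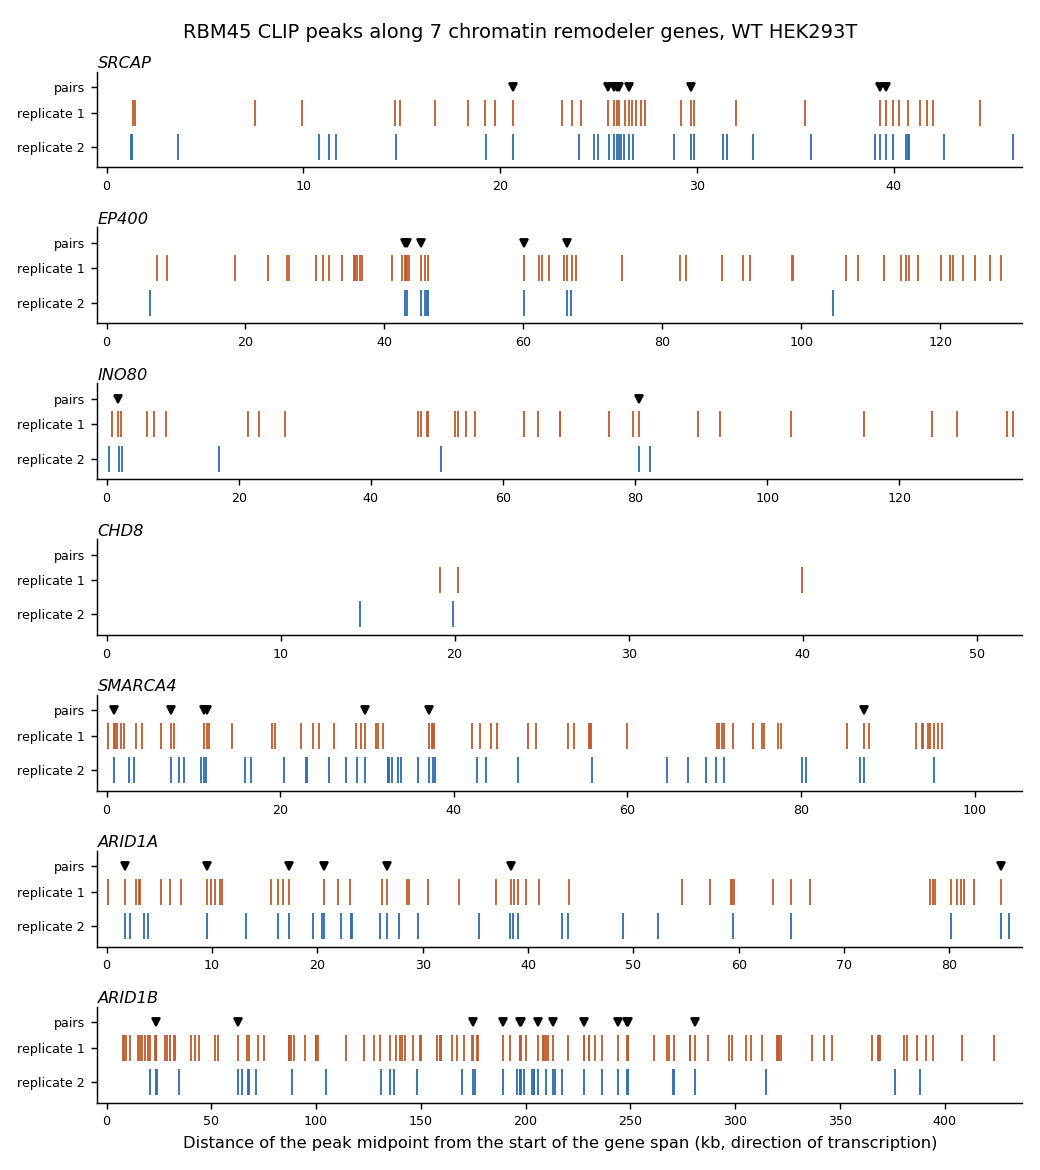
Vertical lines mark peak midpoints along each gene in kb from the start of its span, in the direction of transcription, for the replicate 1 and replicate 2 lists, and triangles mark the deposited pairs. Pairs gather at 25.5 to 30.5 kb in SRCAP, its densest 5 kb by pairs, and at 175 to 281 kb in ARID1B, and CHD8 has none.

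Along all 7 spans together, the 3′ part of 3 equal parts carried fewer peaks than the others in replicate 2, with 29 of 172 entries, against 70 in the 5′ part and 73 in the middle. In replicate 1 the counts were 97, 132 and 125, in the same order. Of the 43 pairs 4 lay in the 3′ part, 15 in the 5′ part and 24 in the middle. These counts pool genes of different length, and ARID1B gave 31.9% of replicate 1 and 25% of replicate 2 entries. The pair counts leave out overlapping peaks that are not in the pair list. Peaks often lay close together. In replicate 1, 228 of 354 entries (64.4%) lay within 1 kb of a further entry of that strand, against 55.0% of the whole list, and in replicate 2, 103 of 172 (59.9%), against 43.4%. Genes chosen by the peaks they hold have more neighbours by that choice, so nothing is read from the distance to the whole lists. The share was highest in SMARCA4 (58 of 64) and SRCAP (32 of 38) in replicate 1, and lowest in ARID1B (52 of 113) and INO80 (15 of 32) among genes with more than 3 peaks.

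The deposited pairs set 2 fold values side by side at the same bases. In the 43 pairs the folds lay within a factor of 2 of each other in 37 (86.0%, 72.1 to 94.7), against 90.5% of all deposited pairs. The replicate 2 fold was the higher in 26 and the replicate 1 fold in 17, and the whole pair list leaned the same way, with 7330 and 6428 of 13758. In SMARCA4 it was higher in replicate 2 in 5 of 7 pairs. Both peaks exceeded 5-fold in 6 pairs (13.95%, 5.30 to 27.9), against 13.9% of all pairs, so the members did not stand out in this. Midpoints were a median of 7.5 bases apart, against 4 over all pairs, and at most 40.5 bases.

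**Figure D5:**
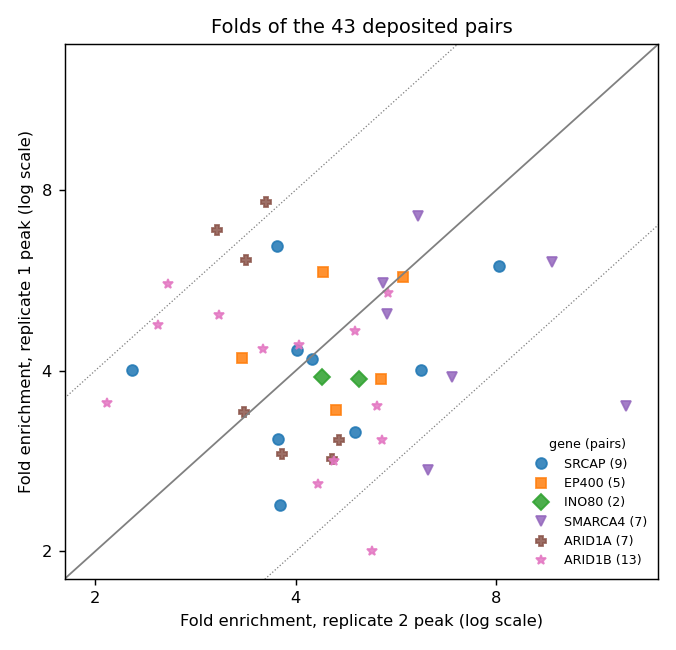
Each symbol is 1 of the 43 deposited pairs, with the replicate 1 fold on the vertical and the replicate 2 fold on the horizontal axis (both log axes). The solid line marks equal folds and the dotted lines a factor of 2, outside which 6 pairs lie, among them the SMARCA4 pair at 3.50-fold and 12.5-fold.

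Nearly every peak in the 7 spans was listed on the gene's own strand, 526 of 527 in both lists together (99.8%, 98.9 to 99.995). The exception was a minus-strand replicate 1 peak near the start of SRCAP, at chromosome 16, 30709791 to 30709828, with 4.09-fold. The peak numbers in the names ran without a gap from the first to the last peak of each span in both lists, although 25.6% of the numbers of the whole replicate 1 list and 15.2% of those of replicate 2 are absent. The number of rows per entry was also constant within SRCAP (1 row), EP400 (1), INO80 (2), ARID1A (2) and ARID1B (2). The origin of the listed strand is unknown here, so it was not read as the strand of the reads. In GENCODE release 29 of GRCh38, every member but ARID1A overlaps other genes on its own strand, from which its peaks cannot be told apart by strand. In SRCAP these are the protein-coding TMEM265 and AC106886.5, the transcript AC106886.2 and the small nucleolar RNA gene SNORA30, and in EP400 the small nucleolar RNA gene SNORA49. All 7 genes also overlap at least 1 gene on the other strand. What the peaks owe to any of these was not tested.

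At the edges of the spans, membership was clear in most cases. ARID1B stood alone, with the nearest same-strand entry outside at 271.5 kb in replicate 1, and INO80 likewise at 107.3 kb. Around SRCAP the nearest entries outside were 0.786 kb past the end in replicate 1 and 7.07 kb in replicate 2. The last SRCAP entry inside, in replicate 2, at 30755554 to 30755619 with 2.57-fold, crossed the end of the span. Around CHD8 a replicate 1 entry of 4.24-fold lay 4.52 kb past the end, and around EP400 the nearest entries lay 6.02 kb past the end in replicate 1 and 6.76 kb before the start in both lists.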

How the data were processed

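Peak lists of the 2 WT CLIP libraries and a list of peak pairs were used. The pair list is filed under a WT input sample, but its peak names are those of both CLIP lists. Per the submitters' processing notes, Novoalign 3.09.00, MACS2 2.1.1.20160309, bedtools 2.25.0 and the hg19 build were named, with no role given. Peaks were called per library at a p threshold of 0.005, per the names in the files. The deposited score is 10 times the −log10 p, the deposited ratio is a fold enrichment over the caller's background, and the deposited −log10 p is unadjusted. Which control the caller used is not stated in the labels or files, and these values were compared within a list or within a pair.

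The deposited count table was not used, because its 8 count columns match no sample label. The planned test of METTL3 knockout against WT, exon and intron classes and other remodeler genes were therefore not run, the last 2 because no hg19 annotation was at hand. Depth per library is unknown.

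Repeated rows were collapsed, positions count the first base as 1, and distances use peak midpoints. Shares carry 95% Clopper-Pearson intervals. Members and lists were chosen with earlier results of these data known. Of each gene the 3 pairs with the highest lower fold, the highest-scoring and widest entries, the densest 5-kb window and the entries at the ends were to be named. Peaks of the highest fold were added after their values were seen. The overlap count was checked on simulated lists and against bedtools 2.31.1. Python 3.11.15, pandas 2.3.3, scipy 1.17.1 and matplotlib 3.10.9 were used. The windows around listed starts are RefSeq's (GRCh38.p14), with 2 for SMARCA4, 2 for ARID1B and 1 for each other gene.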

Additional observations from a re-analysis of the deposited data

How the results depend on the processing

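The share of the members' replicate 2 entries that overlapped replicate 1, 35.5%, was 23.3% with a shared length of 50% or more of both peaks required, against 19.6% of the whole list, because fewer pairs qualify. It was also 23.3% with replicate 1 reduced to the length of replicate 2, against 18.6% of the whole list. It stayed at 35.5% with strand ignored, and the whole list likewise stayed at 28.8%. That setting changed no overlap in either, so it is no check. In the stronger 50% of each list the share was 35.9%, against 33.2%. Without SRCAP, an alternative chosen after seeing the data, the share was 33.1%. Entries in the 7 spans, 354 and 172, became 864 and 451 rows when repeats were kept, by construction. They were 268 and 117 in the stronger 50%, and stayed within 2 of the main number for peaks wholly inside the span or a span extended by 5 kb. Above 4-fold there were 42.0% of entries of both lists and above 10-fold 0.190%, against 15.6% above 5-fold, which was 13.3% to 20.3% in the single lists. The share on the gene's strand was 99.7% to 100% in the single lists, and the median position 41.0% to 44.7% of the span. Pairs numbered 40 under the 50% overlap rule. With 2 lists and no depth, counting error is the sole precision given. No paired analysis was possible because these results come from no test and the counts carry names that match no sample label. The planned count tests were not run because of those names.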
